A study of Mus musculus with 76 samples.

Results

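The DNA damage response and repair genes described here are 31 named genes, chosen by symbol from the Brca, Fanconi anemia, damage kinase, checkpoint, mismatch, single-strand break and end-joining pathways. All 31 were found among the 49585 genes counted in each library. They fall into 10 homologous recombination genes, 8 Fanconi anemia genes, 7 kinase and checkpoint genes, 3 single-strand break, base excision and mismatch genes, and 3 end-joining genes.

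The study sequenced total RNA, depleted of ribosomal RNA, from livers of C57BL/6NJ mouse embryos at embryonic day 14.5, the site of red cell formation at that age. DIS3 and EXOSC10 are the catalytic subunits of the RNA exosome, which trims and destroys many nuclear and cytoplasmic RNAs. The DIS3 line had DIS3 KO and WT embryos and the EXOSC10 line had EXOSC10 KO and WT embryos. Each was profiled as total fetal liver and as the fractions S0, S1, S2, S3 and S4+S5, sorted on CD71 and Ter119 and ordered by the labels from immature to mature erythroid cells. The labels name no allele, Cre driver or cell type in which the knockout acts, and they do not say whether replicates were separate embryos, so p-values measure only the spread between these samples.

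Breaks in DNA are sensed by the kinases Atm and Atr, which mark the surrounding chromatin through the histone variant H2afx and stop the cell cycle through Chek2 and Chek1. Homologous recombination and the Fanconi anemia pathway copy the sister chromatid to mend breaks and crosslinks, and so are most used by cells that replicate their DNA. End joining, led by the Ku proteins Xrcc5 and Xrcc6, works at any stage of the cell cycle.

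Many of these genes are known to be transcribed in a cycle-dependent way through E2F factors, so their promoters were read for the E2F letters. RefSeq (GRCm38.p6) gave a promoter for 24 of the 31 genes, as 300 bases that run from 250 before the transcription start to 50 after it. One of the E2F letters TTTCCCGC, TTTGGCGC, TTTCGCGC or TTTGCCGC stood on either strand in 8 of the 24 genes, against 2.3% of 32817 RefSeq promoters. The 8 were Bard1, Brca2, Chek2, Clspn, Fancg, Msh6, Topbp1 and Xrcc6. The letters CCAAT were found in 16 of the 24 genes, against 37.4% of the 32817 promoters, and the CHR letters TTTGAA or TTCGAA in 2 of the 24 (Atr and Bard1), against 19.2%. The 32817 were counted per promoter and leave out 1 chromosome, which holds no gene of the list. None of the E2F matches in these promoters overlapped a CCAAT or CHR match (0 overlaps). The promoters below are those of Brca2, the gene called lower most often in KO samples, and of Bard1, Fancg and Topbp1, also often lower. Those of Xrcc6 and Xrcc5, the Ku pair, follow. Brca1, Fanca, Palb2 and Atm were also often lower but hold no E2F letters, and their promoters are not shown. Capitals mark the E2F letters, which read as GCGGGAAA in Brca2 and Xrcc6 and GCGCGAAA in Topbp1, where they lie on the other strand. Xrcc5 holds none.
Brca2 promoter, chr5:150522371-150522670, plus strand: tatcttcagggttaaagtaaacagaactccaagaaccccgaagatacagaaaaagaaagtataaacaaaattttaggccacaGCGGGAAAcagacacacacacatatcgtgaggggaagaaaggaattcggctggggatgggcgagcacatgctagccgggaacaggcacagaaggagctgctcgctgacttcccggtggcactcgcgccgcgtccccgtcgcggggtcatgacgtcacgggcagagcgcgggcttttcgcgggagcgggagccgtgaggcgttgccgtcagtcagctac
Bard1 promoter, chr1:71102923-71103222, minus strand: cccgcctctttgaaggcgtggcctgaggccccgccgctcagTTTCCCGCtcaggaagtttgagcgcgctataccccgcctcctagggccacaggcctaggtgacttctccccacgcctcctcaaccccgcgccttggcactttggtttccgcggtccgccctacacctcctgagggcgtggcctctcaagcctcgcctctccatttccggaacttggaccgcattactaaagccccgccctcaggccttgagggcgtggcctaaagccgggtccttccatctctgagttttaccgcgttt
Fancg promoter, chr4:43010252-43010551, minus strand: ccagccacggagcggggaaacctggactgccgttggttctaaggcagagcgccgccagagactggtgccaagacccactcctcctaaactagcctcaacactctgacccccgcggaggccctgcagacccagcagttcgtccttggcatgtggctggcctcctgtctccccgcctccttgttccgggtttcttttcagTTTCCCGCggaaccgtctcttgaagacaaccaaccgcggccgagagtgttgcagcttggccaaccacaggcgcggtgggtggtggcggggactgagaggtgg
Topbp1 promoter, chr9:103305077-103305376, plus strand: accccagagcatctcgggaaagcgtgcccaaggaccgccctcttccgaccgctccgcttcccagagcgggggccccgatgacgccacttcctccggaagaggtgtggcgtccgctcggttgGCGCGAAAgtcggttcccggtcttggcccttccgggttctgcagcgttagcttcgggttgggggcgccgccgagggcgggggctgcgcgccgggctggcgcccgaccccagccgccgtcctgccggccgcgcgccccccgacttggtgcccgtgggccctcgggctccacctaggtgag
Xrcc6 promoter, chr15:82016119-82016418, plus strand: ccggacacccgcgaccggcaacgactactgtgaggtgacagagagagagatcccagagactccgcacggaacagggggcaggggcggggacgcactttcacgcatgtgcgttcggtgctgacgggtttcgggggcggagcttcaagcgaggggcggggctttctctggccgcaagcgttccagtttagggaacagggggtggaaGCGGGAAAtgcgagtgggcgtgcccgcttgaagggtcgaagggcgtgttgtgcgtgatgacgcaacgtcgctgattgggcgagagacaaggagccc
Xrcc5 promoter, chr1:72307171-72307470, plus strand: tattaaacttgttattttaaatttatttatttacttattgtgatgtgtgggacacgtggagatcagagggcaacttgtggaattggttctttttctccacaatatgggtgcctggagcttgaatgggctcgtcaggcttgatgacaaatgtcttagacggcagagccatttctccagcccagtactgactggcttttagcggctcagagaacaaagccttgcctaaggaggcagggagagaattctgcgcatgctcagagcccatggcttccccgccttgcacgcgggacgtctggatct
Counted from the transcription start, the match began at position -168 in Brca2, -209 in Bard1, -52 in Fancg, -129 in Topbp1 and -46 in Xrcc6. A match is a string of letters and not a measured binding site. The 8 genes with a match were called lower in KO samples in 1 to 11 of the 12 comparisons below (median 8), and the 16 without one in 0 to 10 (median 4.5), a description with no test. The groups overlapped. Without a match, Brca1 was called lower in 10, Fanca and Palb2 in 9 and Atm in 8. With a match, Chek2 was called lower in 5, Msh6 in 4 and Xrcc6 in 1. Exo1, Fancd2, H2afx, Nbn, Prkdc, Rad50 and Rad54b had no entry.

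The 76 libraries held 4.66 to 30.41 M (mega) counts each. In 24 of the 84 pairs of libraries within a group the difference stayed far below that of other replicates, so their counts were added up. That gave 52 samples in all, with 2 in every sorted group. Total liver had 2 KO and 4 WT samples in the DIS3 line and 3 KO and 3 WT samples in the EXOSC10 line. Levels are CPM, counts scaled to library size by the trimmed mean of M values (TMM) within each comparison; only levels given per kilobase compare genes with each other. A gene was called higher or lower where the Benjamini-Hochberg adjusted p of edgeR's quasi-likelihood test, over all genes tested, was under 0.05. The 31 genes had 7 to 30154 counts in a sample (median 925), and all 31 passed the filter on low counts in every KO comparison. By identifier and GRCm38 position, Brca2 is ENSMUSG00000041147 at chr5:150522630-150570329, H2afx is ENSMUSG00000049932 at chr9:44334694-44336077, Exo1 is ENSMUSG00000039748 at chr1:175880581-175913489 and Xrcc5 is ENSMUSG00000026187 at chr1:72307421-72394952, all protein-coding and on the plus strand.

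The targeted gene had a lower mean in KO than in WT samples of all 6 populations of its line. Exosc10 was called lower in each population of the EXOSC10 line, by a log2 fold change of -1.9 in S0 (16.9 CPM in KO and 62.6 CPM in WT on average) and -0.44 in S3 (29.4 against 40.1 CPM). Dis3 was called lower in S0, S1, S2 and S3 of the DIS3 line, with a log2 fold change of -0.95 in S0 (26.9 against 52.3 CPM), and was not called in total liver (-0.25, 32 against 38.3 CPM) or S4+S5 (-0.68, 5.31 against 8.03 CPM). All sorted KO samples of the DIS3 line had next to no counts of the Y-linked genes Ddx3y, Uty, Eif2s3y and Kdm5d (0.07 to 1.11 CPM in sum), while all sorted WT samples of that line had 81.93 to 173.73 CPM. In the sorted DIS3 populations sex and genotype therefore cannot be told apart. In DIS3 total liver the KO samples had 0.18 and 0.24 CPM of these genes, against 126.8 to 145.64 CPM in 3 WT livers and 0.24 CPM in WT 3. With WT 3 as the only WT liver, where the spread comes from the 2 KO samples alone, 17 of the 31 genes were called in DIS3 total liver, in place of 25, and 4992 of all genes, in place of 8899. Every sample of the EXOSC10 line had 0 to 4.24 CPM. In bulk samples, fewer cells of a type and less RNA per cell cannot be told apart.

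In WT livers the level of every gene of the list depended on the erythroid stage, as did that of most genes tested. All 31 differed between S0, S1, S2, S3 and S4+S5 in the DIS3 line, where 88.7% of 15730 genes did, and in the EXOSC10 line, where 86.4% of 16323 genes did. Most stood highest at S3: 20 of 31 peaked there in the DIS3 line and 19 in the EXOSC10 line. The lowest level was in S4+S5 for 22 genes of the DIS3 line and 15 of the EXOSC10 line, and in S0 for 6 and 13. How many of all genes stood highest or lowest in each population was not counted.

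Brca1, the ubiquitin ligase subunit that directs broken ends towards recombination, averaged 63, 80.7, 126, 248 and 66.6 CPM in S0, S1, S2, S3 and S4+S5 of the DIS3 WT samples. In the EXOSC10 WT samples it averaged 58.2, 80, 113, 240 and 142 CPM in the same order. Each step was called in both lines, the first 3 upwards and the last downwards. The step into S3 was 0.99 ± 0.1 on the log2 scale (SE, adjusted p = 6.5e-07) in the DIS3 line and 1.09 ± 0.09 (adjusted p = 1.14e-08) in the EXOSC10 line. Brca2, a mediator of homologous recombination, took the same course, with 75.3, 106, 146, 252 and 61.1 CPM in the DIS3 line and 71.7, 97.5, 126, 220 and 102 CPM in the EXOSC10 line. Blm, the helicase that dissolves crossed strands, reached 282 CPM at S3 of the DIS3 line and 274 CPM at S3 of the EXOSC10 line, against 76.2 and 74.8 CPM in S0 of those lines.

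Atm and Atr, the kinases at the head of the damage response, ran the other way at S3. Atm averaged 97.8, 104, 94.8, 59 and 61.1 CPM through the DIS3 WT populations and 97.1, 99.9, 86.7, 57 and 67.8 CPM through the EXOSC10 WT populations. Atr had 89.4, 94.2, 82.8, 40.8 and 38.4 CPM in the DIS3 line and 86.8, 94.6, 74.7, 44 and 39 CPM in the EXOSC10 line. For S3 over S2 the log2 fold change of Atm was -0.68 ± 0.09 in the DIS3 line and -0.6 ± 0.1 in the EXOSC10 line, and that of Atr was -1.02 ± 0.11 and -0.75 ± 0.11, all 4 called. Chek2, a kinase that Atm switches on, instead rose at S3 over S2, with log2 fold changes of 1.05 ± 0.09 in the DIS3 line and 1.03 ± 0.09 in the EXOSC10 line, and averaged 104 and 101 CPM there. Parp1, the sensor of nicked DNA, and Xrcc5, a subunit of the Ku ring that caps broken ends, were also called lower at S3 in both lines. Xrcc5 had 12, 30.5, 28.8, 15.8 and 6.95 CPM in the DIS3 line and 19.1, 32.8, 28.6, 15.9 and 6.25 CPM in the EXOSC10 line, so it peaked at S1.

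The 3 genes with the widest range over the stages were H2afx (2.33 on the log2 scale), Xrcc5 (2.13) and Blm (2.07) in the DIS3 line, and H2afx (2.7), Xrcc5 (2.39) and Brca1 (2.04) in the EXOSC10 line. The steps of H2afx from S0 to S2 were not called, and it rose at S3, with a log2 fold change over S2 of 1.69 ± 0.16 in the DIS3 line and 2.25 ± 0.35 in the EXOSC10 line. In S4+S5 over S3 it fell in the DIS3 line (-1.16 ± 0.16) and was not called in the EXOSC10 line (0.1 ± 0.33, adjusted p = 0.819). The EXOSC10 S4+S5 samples had 371 and 772 CPM.

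For S1 over S0, 18 genes were higher and 2 lower in the DIS3 line (24.4% and 31.7% of all genes) and 19 higher and 1 lower in the EXOSC10 line (24.1% and 28.3%). For S2 over S1, 8 were higher and 0 lower in the DIS3 line (9.36% and 10.1%) and 7 higher and 1 lower in the EXOSC10 line (9.98% and 7.87%). For S3 over S2, 16 were higher and 8 lower in the DIS3 line (25.4% and 27.2%) and 18 higher and 6 lower in the EXOSC10 line (26.5% and 26.1%). For S4+S5 over S3, 0 were higher and 29 lower in the DIS3 line (34.5% and 30%) and 1 higher and 27 lower in the EXOSC10 line (37.5% and 19.8%). The gene that was higher there was Atm (0.25 ± 0.1, adjusted p = 0.038). Its call was lost in the other settings tried for this step, each of which left 0 genes of the list higher. Those were DESeq2's size factors, no low-count filter, and libraries kept unsummed. The median of all genes in this step also moved down under each, to 0.1, 0 and -0.11.

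Per kilobase of exon, the 3 most abundant genes of the list over the WT populations were H2afx (145 CPM per kb on average in the DIS3 line and 202 in the EXOSC10 line), Parp1 (34.4 and 31.4), and Topbp1 in the DIS3 line (23.5) or Bard1 in the EXOSC10 line (23.5). The 3 least abundant in both lines were Atr (2.93 and 2.87 CPM per kb), Fancb (3.04 and 3.01) and Rad54b (3.17 in each line). The length joins all annotated exons of a gene. That of Atr was the longest of the list (23629 bases, with Brca2 next at 13643), so its low place depends on this length.

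**Figure D1:**
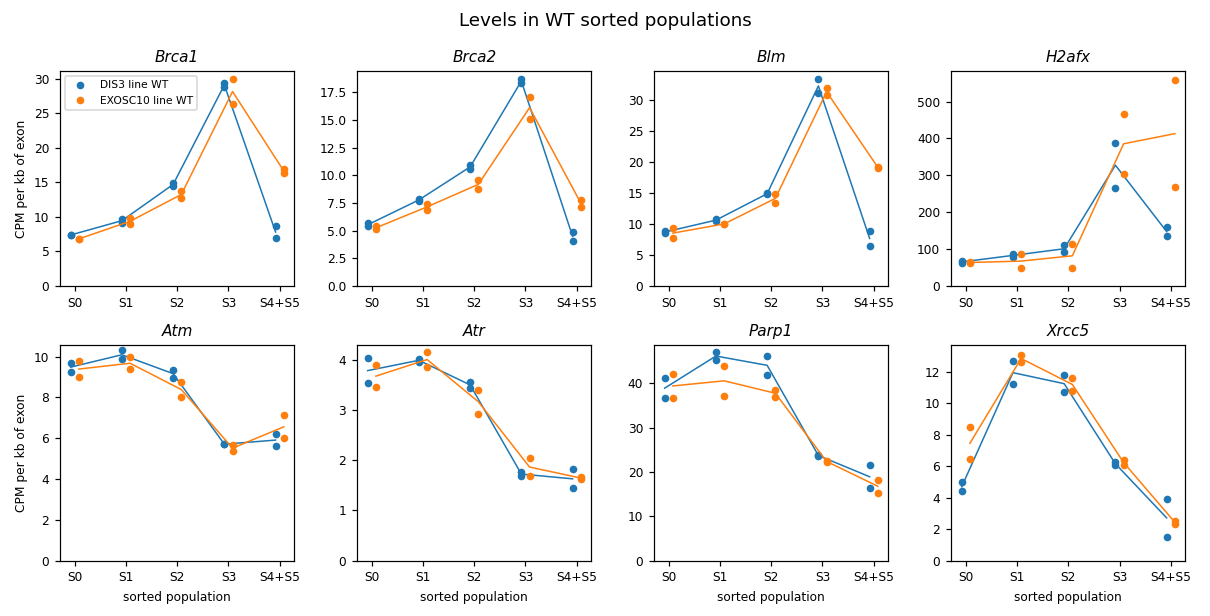
Level per kilobase of exon (CPM per kb, vertical axis) of 8 genes in the WT populations S0 to S4+S5 (horizontal axis) of the DIS3 and EXOSC10 lines; points are samples, 2 per population and line, and lines join the means. Brca1, Brca2, Blm and H2afx climb to S3, while Atm, Atr, Parp1 and Xrcc5 are lower at S3 than at S2.

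In total liver of both lines most genes of the list were lower in KO embryos. In the DIS3 line 24 of the 31 genes were called lower and 1 higher, against 24.2% lower, 26.5% higher and 50.7% in either direction of 17553 genes tested. In the EXOSC10 line 26 were lower and 2 higher, against 31% lower, 31.4% higher and 62.4% in either direction of 16771 genes. The median log2 fold change of the 31 was -0.5 in the DIS3 line, against 0.03 over all genes, and -0.54 in the EXOSC10 line, against 0. The same 23 genes were lower in both lines.

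Of the 10 homologous recombination genes, 8 were lower in the DIS3 line and 9 in the EXOSC10 line. Bard1, the partner of Brca1, had 47.9 and 54.3 CPM in the DIS3 KO livers, against 111, 108, 108 and 112 CPM in the WT livers. Its log2 fold change was -1.1 ± 0.1 (SE, adjusted p = 5.26e-07). For Bard1 the EXOSC10 line had 54.3, 62.6 and 51.4 CPM in KO livers, against 126, 116 and 112 CPM in WT livers (-1.07 ± 0.08, adjusted p = 3.2e-07). In both lines every KO liver lay below every WT liver. Most genes named here and below were picked for large called changes, so groups that do not overlap add no support to a call. The share of all genes without overlap was not counted.

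Brca1 had 67.9 and 71.2 CPM in DIS3 KO livers, against 124, 122, 133 and 115 CPM in WT livers (-0.83 ± 0.1). EXOSC10 KO livers had 72.2, 83.3 and 73.4 CPM of Brca1, against 134, 138 and 135 CPM in WT livers (-0.83 ± 0.07). Brca2 had 58.8 and 56.1 CPM in DIS3 KO livers, against 112, 111, 104 and 109 CPM in WT livers (-0.92 ± 0.09). The KO and WT values of both genes did not overlap in either line. For Brca2 the EXOSC10 line had 73.6, 79.9 and 73.7 CPM in KO livers, against 131, 129 and 134 CPM in WT livers (-0.79 ± 0.06). Rad54b, a motor protein of strand exchange, stood apart: its log2 fold change was -0.01 in the DIS3 line and 0.19 in the EXOSC10 line, neither called.

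Of the 8 Fanconi genes, whose core complex tags Fancd2 and Fanci with ubiquitin at a crosslink, 7 were lower in the DIS3 line and 6 in the EXOSC10 line. Fanca of the core complex had 28.5 and 30.3 CPM in DIS3 KO livers, against 65.5, 56, 58.5 and 61.7 CPM in WT livers (-1.04 ± 0.1, adjusted p = 1.4e-06). For Fanca the EXOSC10 line had 39.5, 40.9 and 40.8 CPM in KO livers, against 64, 54.4 and 57.4 CPM in WT livers (-0.54 ± 0.07, adjusted p = 3.08e-05). The groups did not overlap, and the gap was wider in the DIS3 line, a difference tested further on. Fancg, also of the core, had 8.68 and 8.58 CPM in DIS3 KO livers, against 22.3, 17.3, 20.5 and 18.2 CPM in WT livers (-1.2 ± 0.14). Fancb, the X-linked core member, was called in neither line (0.17 and -0.1).

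Among kinases and checkpoint genes 6 of 7 were lower and 1 was higher in each line. H2afx showed the largest change of the list in both. It had 267 and 374 CPM in DIS3 KO livers, against 1050, 1010, 806 and 929 CPM in WT livers (-1.57 ± 0.16, adjusted p = 1.52e-06). For H2afx the EXOSC10 line had 299, 296 and 252 CPM in KO livers, against 733, 680 and 646 CPM in WT livers (-1.28 ± 0.09, adjusted p = 2.12e-07). No KO liver reached the level of a WT liver in either line.

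Chek2 had 27.2, 29.8 and 25.6 CPM in EXOSC10 KO livers, against 60.3, 58.4 and 53.9 CPM in WT livers (-1.06 ± 0.07). Chek1 had 27.7 and 26.6 CPM in DIS3 KO livers, against 43.6, 39.1, 45.3 and 38 CPM in WT livers (-0.63 ± 0.11). For Chek1 the EXOSC10 line had 30.8, 30 and 32.4 CPM in KO livers, against 44.1, 49.3 and 51.4 CPM in WT livers (-0.64 ± 0.07). The KO and WT livers did not overlap for these genes.

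The apex kinases moved little, and in opposite directions: Atr was higher and Atm lower. Atr had 57.2 and 47.5 CPM in DIS3 KO livers, against 41.9, 43.4, 45.7 and 41.9 CPM in WT livers (0.27 ± 0.1, adjusted p = 0.036). It had 73.1, 75.9 and 83.2 CPM in EXOSC10 KO livers, against 59.2, 59.9 and 65.4 CPM in WT livers (0.33 ± 0.07, adjusted p = 0.00118). Atr was thus the gene of the list that was called higher in both total livers, without overlap between groups. Xrcc5 was above 0 in both too, but had no DIS3 call there. The DIS3 call was lost with the DESeq2 Wald test (adjusted p = 0.064), against the WT liver without Y-linked counts alone (0.18, adjusted p = 0.576), and without KO 1-3 (0.12), WT 1 (0.25), WT 2 (0.27) or WT 4 (0.26).

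Atm had 37 and 32.8 CPM in DIS3 KO livers, against 40.3, 44.2, 41.1 and 43.9 CPM in WT livers (-0.27 ± 0.1, adjusted p = 0.0351). For Atm the EXOSC10 line had 55.4, 56.6 and 57.5 CPM in KO livers, against 62.1, 62.5 and 65.2 CPM in WT livers (-0.17 ± 0.06, adjusted p = 0.0243). Both calls were lost when all groups of the line shared 1 fit (-0.11, adjusted p = 0.375, and -0.03, adjusted p = 0.798). The DIS3 call of Atm was also lost without the filter on low counts (adjusted p = 0.0628), against the WT liver without Y-linked counts alone (-0.25, adjusted p = 0.399), and without KO 2-4 (-0.19) or any 1 WT liver (-0.3 to -0.25). The EXOSC10 call was lost without KO 1 (-0.15) or WT 3-4 (-0.14).

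The 3 single-strand break and mismatch genes were lower in both lines, with log2 fold changes of -0.32 for Parp1, -0.36 for Xrcc1 and -0.4 for Msh6 in the DIS3 line and -0.3, -0.36 and -0.45 in the EXOSC10 line. Of the 3 end-joining genes 0 were called in the DIS3 line, where Xrcc5 stood at 0.28, and in the EXOSC10 line Prkdc (-0.27) and Xrcc6 (-0.41) were lower while Xrcc5 was higher. Xrcc5 had 37.9, 36 and 36.1 CPM in EXOSC10 KO livers, against 31.5, 32.3 and 33.2 CPM in WT livers (0.18 ± 0.06, adjusted p = 0.024). The groups did not overlap, but the call was lost with DESeq2's Wald test (adjusted p = 0.124), without the filter on low counts (0.107), and without KO 1, WT 1 or WT 2 (0.0784 to 0.0878).

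Markers of other cell types differed in the same livers. All 12 red cell markers were lower in KO livers of both lines, with a summed level of 9590 to 12100 CPM in DIS3 KO and 19700 to 22400 CPM in DIS3 WT livers, and of 6160 to 8250 CPM in EXOSC10 KO and 15300 to 16200 CPM in EXOSC10 WT livers. All 10 hepatocyte markers were higher, with 110000 to 112000 CPM in DIS3 KO and 49300 to 56100 CPM in DIS3 WT livers, and 56000 to 76200 CPM in EXOSC10 KO and 32000 to 40700 CPM in EXOSC10 WT livers. None of these red cell and hepatocyte markers stood at 0 in a group. All 20 S phase genes and all 20 G2 and mitosis genes were lower in both lines too (medians -0.78 and -0.76 in DIS3, -0.97 and -0.78 in EXOSC10). The part of these lists in the levels of the repair genes was not tested.

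**Figure D2:**
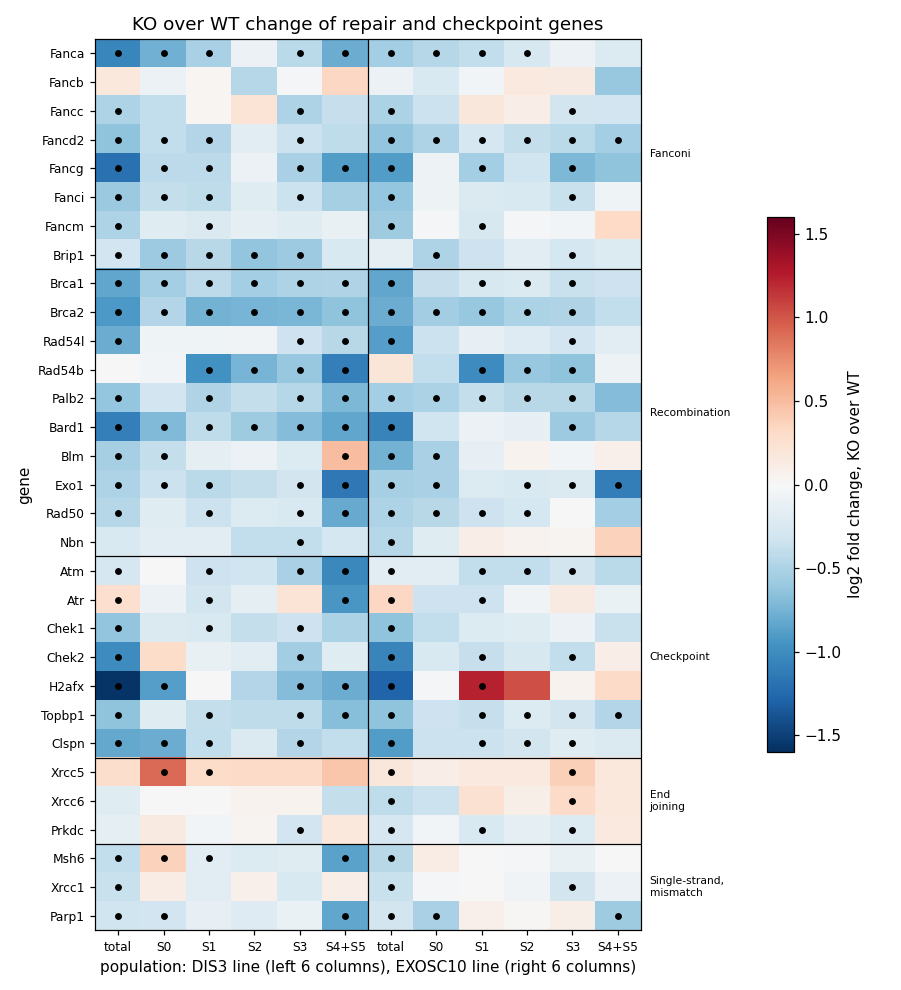
Log2 fold change of KO over WT (colour) for the 31 genes (rows, grouped by role) in total liver and 5 sorted populations of each line (columns); marked cells were called at an adjusted p under 0.05. The total liver columns are lower almost throughout, Brca2 is below 0 in every column and Xrcc5 is above 0 in every column.

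In S0, the least mature fraction, the list was lower in part. In the DIS3 line 13 genes were lower and 2 higher, against 13% lower, 18% higher and 31% in either direction of 16616 genes; in the EXOSC10 line 9 were lower and 0 higher, against 4.63% lower, 8.84% higher and 13.5% in either direction of 15754 genes. The median log2 fold change was -0.23 and -0.34, against 0 over all genes in each line. The number called, in either direction, fell to 9 in the DIS3 line without WT 2, and to 5 and 1 in the EXOSC10 line without WT 1 and without WT 2-3.

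Of the recombination genes 5 of 10 were lower in each line. Brca2 had 64.3 and 83.1 CPM in DIS3 KO samples, against 104 and 98.5 CPM in WT samples (-0.47 ± 0.12, adjusted p = 0.0143), and 60.9 and 64.4 CPM in EXOSC10 KO samples, against 89.7 and 94.5 CPM in WT samples (-0.56 ± 0.1, adjusted p = 0.0115). Blm had 69.3 and 65.7 CPM in EXOSC10 KO samples, against 87.2 and 105 CPM in WT samples (-0.52 ± 0.12). Exo1, the nuclease that lays bare single strands at a break, had 55.8 and 50.7 CPM in EXOSC10 KO samples, against 71.7 and 80.6 CPM in WT samples (-0.52 ± 0.11). None of these groups overlapped. The EXOSC10 calls of all 3 were lost without WT 2-3 (-0.53, -0.38 and -0.44), and those of Blm and Exo1 also without KO 2-3 (-0.47 and -0.45). Brca1 had 58.5 and 56.5 CPM in DIS3 KO samples, against 83.8 and 85.2 CPM in WT samples (-0.55 ± 0.1, adjusted p = 0.00134). For Brca1 the EXOSC10 line had 54.5 and 60.8 CPM in KO samples, against 74.6 and 75.2 CPM in WT samples (-0.37 ± 0.11, adjusted p = 0.0535), and was not called.

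Fanca had 64.4 and 56.2 CPM in DIS3 KO S0, against 110 and 96.8 CPM in WT S0 (-0.77 ± 0.11), and 69.2 and 63.6 CPM in EXOSC10 KO S0, against 98.8 and 83.8 CPM in WT S0 (-0.46 ± 0.12, adjusted p = 0.0388). The EXOSC10 call was lost without KO 2-3 (-0.39) or WT 1 (-0.36). Clspn, the adaptor through which Atr switches on Chek1, had 39.9 and 25.9 CPM in DIS3 KO S0, against 59.2 and 57.4 CPM in WT S0 (-0.79 ± 0.17). H2afx had 59.2 and 73.8 CPM in DIS3 KO S0, against 127 and 115 CPM in WT S0 (-0.88 ± 0.12, adjusted p = 0.000263), but 99.3 and 123 CPM in EXOSC10 KO S0, against 118 and 109 CPM in WT S0 (-0.03 ± 0.13, adjusted p = 0.911), where the groups overlapped.

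The kinases themselves were not called in S0. Atm had 134 and 128 CPM in DIS3 KO and 135 and 128 CPM in DIS3 WT samples, and 108 and 114 CPM in EXOSC10 KO and 130 and 120 CPM in EXOSC10 WT samples (-0.01 ± 0.09 and -0.17 ± 0.1). Atr had 111 and 114 CPM in DIS3 KO and 128 and 112 CPM in DIS3 WT samples, and 93.7 and 84.1 CPM in EXOSC10 KO and 118 and 105 CPM in EXOSC10 WT samples (-0.09 ± 0.1 and -0.33 ± 0.11). Chek1 had 47.3 and 43.5 CPM in DIS3 KO and 54.5 and 52.5 CPM in DIS3 WT samples, and 35.7 and 41.7 CPM in EXOSC10 KO and 51.6 and 50.8 CPM in EXOSC10 WT samples (-0.23 ± 0.11 and -0.4 ± 0.12, adjusted p = 0.123 and 0.0633).

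Xrcc5 and Msh6 were higher in DIS3 KO S0. Xrcc5 had 29.4 and 31.1 CPM in KO samples, against 17.1 and 15.1 CPM in WT samples, a log2 fold change of 0.9 ± 0.14 (adjusted p = 0.000764) and the largest rise of that gene. Msh6, a mismatch recognition protein, had 172 and 167 CPM in KO samples, against 131 and 130 CPM in WT samples (0.37 ± 0.09, adjusted p = 0.00876); its call was lost without WT 1-3 (0.33) or WT 2 (0.35).

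Markers of other cells differed between the same S0 samples. For DIS3 all 9 granulocyte markers tested were lower (454 to 617 CPM in KO and 2830 to 3240 CPM in WT samples in sum), as were 9 of 9 B cell markers (32.1 to 33.8 against 209 to 254 CPM, with Dntt at 0 in both groups) and 5 of 6 macrophage markers (13.3 to 15.8 against 157 to 167 CPM, with Vcam1 and C1qa at 0 in KO). Of the 9 B cell markers tested in the EXOSC10 line 8 were lower (19.8 to 29.9 against 213 to 235 CPM, with Igll1 and Dntt at 0 in KO and Dntt in WT), 5 granulocyte markers were higher and 1 lower of 9 (986 to 1780 against 705 to 909 CPM), and 6 of 8 hepatocyte markers were higher (67.3 to 997 against 26.2 to 36.7 CPM). In the S phase list 12 genes were lower and 1 higher in the DIS3 line and 7 lower and 0 higher in the EXOSC10 line, of 20. Of the 20 G2 and mitosis genes 15 were lower and 0 higher in DIS3 S0 (median -0.46). They summed to 1570 to 1620 CPM in DIS3 KO and 2130 to 2280 CPM in DIS3 WT samples. In the EXOSC10 line they summed to 1330 to 1650 CPM in KO and 1970 to 2050 CPM in WT samples. Their part in the repair genes' levels was not tested.

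In S1, 19 genes were lower and 1 higher in the DIS3 line, against 19.4% lower, 20.6% higher and 40.1% in either direction of 14222 genes, and 15 lower and 1 higher in the EXOSC10 line, against 15.5% lower, 15.2% higher and 30.7% in either direction of 13676 genes. The medians were -0.29 and -0.25, against 0 over all genes. In the DIS3 line 7 of 10 recombination, 6 of 8 Fanconi and 5 of 7 checkpoint genes were lower, and in the EXOSC10 line 5, 4 and 5. In the EXOSC10 line the number called, 16 in either direction, fell to 10 without KO 1 and to 9 without WT 2-3.

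Rad54b fell furthest in both lines, in contrast to total liver. It had 7.87 and 7.84 CPM in DIS3 KO S1, against 15.4 and 15.5 CPM in WT S1 (-0.97 ± 0.14, adjusted p = 0.000189), and 7.84 and 7.39 CPM in EXOSC10 KO S1, against 16.2 and 14.4 CPM in WT S1 (-1.01 ± 0.17, adjusted p = 9.32e-05). The gene Fsbp lies inside Rad54b on the same strand, so the counting could split or drop reads they share. Brca2 had 74.7 and 76.6 CPM in DIS3 KO S1, against 128 and 129 CPM in WT S1 (-0.76 ± 0.06, adjusted p = 1.75e-06), and 67.2 and 77.4 CPM in EXOSC10 KO S1, against 108 and 113 CPM in WT S1 (-0.61 ± 0.09, adjusted p = 2.77e-05). KO and WT samples of both genes did not overlap in either line.

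Fanca had 78.1 and 84.4 CPM in DIS3 KO S1, against 113 and 121 CPM in WT S1 (-0.52 ± 0.07). Fancg had 17.4 and 16 CPM in EXOSC10 KO S1, against 24.3 and 24 CPM in WT S1 (-0.54 ± 0.13). The exceptions were Xrcc5 and H2afx. Xrcc5 had 43.7 and 48.2 CPM in DIS3 KO S1, against 38.7 and 35 CPM in WT S1 (0.29 ± 0.08, adjusted p = 0.0153). That call was lost with DESeq2's Wald test (adjusted p = 0.0742), with all groups of the line in 1 fit (0.225), and without KO 2 (0.0597) or WT 2 (0.0521). H2afx had 269 and 224 CPM in EXOSC10 KO S1, against 138 and 76.2 CPM in WT S1, a log2 fold change of 1.23 ± 0.16 (adjusted p = 4.24e-06), the largest rise of the list in any comparison. In DIS3 KO S1 its log2 fold change was 0.

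In the S phase list of EXOSC10 S1, 3 genes were lower and 2 higher of 20 (median -0.06), and their summed level was 4040 to 4080 CPM in KO and 3730 to 4090 CPM in WT samples. In DIS3 S1, 8 were lower and 1 higher (median -0.14), with 3880 to 3950 CPM in KO and 4180 to 4240 CPM in WT samples. Of the 20 G2 and mitosis genes 14 were lower and 0 higher in DIS3 S1 (median -0.34). They summed to 1930 to 2010 CPM in DIS3 KO and 2440 CPM in DIS3 WT samples. In the EXOSC10 line they summed to 1910 to 2150 CPM in KO and 2090 to 2250 CPM in WT samples. All 8 granulocyte markers tested were lower in KO S1 of both lines, with 4.94 to 35.2 CPM in DIS3 KO and 285 to 911 CPM in DIS3 WT samples and 6.72 to 23.8 CPM in EXOSC10 KO and 276 to 622 CPM in EXOSC10 WT samples, Ly6g being at 0 in every group. Their part was not tested.

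In S2 fewer genes passed the test. The DIS3 line had 5 lower and 0 higher, against 4.8% lower, 10.3% higher and 15.1% in either direction of 14035 genes, and the EXOSC10 line 11 lower and 0 higher, against 9.86% lower, 11.6% higher and 21.4% in either direction of 13115 genes. The medians were -0.22 and -0.19, against 0 and 0.01 over all genes. These counts leaned on single samples: in the DIS3 line they became 14 without KO 1-3, 17 without KO 2, 0 without WT 1-3 and 1 without WT 2, and in the EXOSC10 line 7 without KO 1, 7 without WT 1 and 5 without WT 2-3. In DIS3 S2 the genes Gm26917 and Gm42418 took 35.3% of the counts in KO 1-3 and 61.4% in KO 2. Their share was 32.9% in WT 1-3 and 38.2% in WT 2. With both genes left out, 7 of the list were called in DIS3 S2. The part of this difference between samples was not tested.

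The 3 genes that fell furthest in DIS3 S2 were Brca2, Rad54b and Brip1, the helicase bound by Brca1. Brca2 had 87.2 and 89.5 CPM in KO samples, against 151 and 147 CPM in WT samples (-0.75 ± 0.12, adjusted p = 0.00345). Rad54b had 9.14 and 9.02 CPM in KO samples, against 15.8 and 14.9 CPM in WT samples (-0.75 ± 0.17, adjusted p = 0.0203). Brip1 had 22.6 and 18.2 CPM in KO samples, against 30.7 and 33.3 CPM in WT samples (-0.63 ± 0.16, adjusted p = 0.0296). Groups did not overlap, but all 3 calls were lost without WT 1-3 (-0.74, -0.71 and -0.7), and those of Rad54b and Brip1 without WT 2 (-0.8 and -0.59).

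In EXOSC10 S2 the 3 were Rad54b, Brca2 and Palb2, the bridge between Brca1 and Brca2. Brca2 had 101 and 106 CPM in KO samples, against 144 and 152 CPM in WT samples (-0.51 ± 0.07, adjusted p = 0.00148). Palb2 had 29.9 and 30.1 CPM in KO samples, against 40 and 41.6 CPM in WT samples (-0.45 ± 0.09, adjusted p = 0.00848). Rad54b had 10.1 and 13.5 CPM in KO samples, against 16 and 20 CPM in WT samples (-0.61 ± 0.18, adjusted p = 0.05 after rounding). It lost its call with DESeq2's Wald test (adjusted p = 0.0961) and without KO 1 or WT 2-3 (-0.43 in each case). H2afx was not called although its log2 fold change was 1.03. In the S phase list 0 genes were called in DIS3 S2 (median -0.28), and 3 were lower and 2 higher in EXOSC10 S2 (median -0.09). Of the 20 G2 and mitosis genes 5 were lower and 0 higher in DIS3 S2 (median -0.39). They summed to 2050 to 2250 CPM in DIS3 KO and 2760 to 2840 CPM in DIS3 WT samples. In the EXOSC10 line they summed to 2780 to 2900 CPM in KO and 2990 to 3040 CPM in WT samples. Macrophage markers were lower in 9 of 10 tested in DIS3 S2 (0.101 to 0.611 CPM in KO and 16.1 to 22.8 CPM in WT samples in sum, with Mrc1, Cd5l and C1qa at 0 in KO) and in 10 of 10 in EXOSC10 S2 (2.69 to 4.05 against 50.6 to 53.1 CPM, with Timd4, C1qb and C1qc at 0 in KO). In EXOSC10 S2, 7 of 9 hepatocyte markers were higher (122 to 126 CPM in KO and 13 to 15.1 CPM in WT samples), with none at 0. Their part was not tested.

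S3, where most of the list peaks in WT livers, again had many genes lower in KO samples. In the DIS3 line 22 genes were lower and 0 higher, against 15.9% lower, 16.3% higher and 32.1% in either direction of 13052 genes, and in the EXOSC10 line 18 were lower and 2 higher, against 17.2% lower, 16.8% higher and 34.1% in either direction of 12774 genes. The medians were -0.35 and -0.23, against 0.01 over all genes in each line. The DIS3 count became 14 without KO 1-3, and the EXOSC10 count, 20 in either direction, 12 with DESeq2's Wald test.

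Bard1 had 129 and 138 CPM in DIS3 KO S3, against 216 and 217 CPM in WT S3 (-0.7 ± 0.08, adjusted p = 2.81e-05), and 135 and 138 CPM in EXOSC10 KO S3, against 202 and 208 CPM in WT S3 (-0.58 ± 0.05, adjusted p = 3.7e-06). Brca2 had 126 and 138 CPM in DIS3 KO S3, against 217 and 220 CPM in WT S3 (-0.73 ± 0.08, adjusted p = 2.51e-05). H2afx had 230 and 258 CPM in DIS3 KO S3, against 466 and 319 CPM in WT S3 (-0.69 ± 0.14, adjusted p = 0.00226), a call lost with DESeq2's Wald test (adjusted p = 0.0689). The groups did not overlap for any of the 3. In EXOSC10 S3, Fancg had 18.9 and 18.1 CPM in KO samples, against 30.3 and 30.5 CPM in WT samples (-0.72 ± 0.1), and Rad54b had 14.5 and 11.8 CPM in KO samples, against 21.2 and 19.6 CPM in WT samples (-0.64 ± 0.13).

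The Ku genes went up in EXOSC10 S3. Xrcc5 had 15.5 and 18.6 CPM in KO samples, against 14.2 and 12.6 CPM in WT samples (0.38 ± 0.13, adjusted p = 0.0395). Xrcc6 had 33.8 and 29.5 CPM in KO samples, against 24.5 and 26 CPM in WT samples (0.31 ± 0.1, adjusted p = 0.0254). Neither pair of groups overlapped. Both calls were lost with DESeq2's Wald test (adjusted p = 0.239 and 0.141), with all groups in 1 fit (0.177 and 0.198), and without single samples, which were KO 2-3 (0.24) or WT 2-3 (0.28) for Xrcc5 and KO 1 (0.22) or WT 1 (0.27) for Xrcc6. Desi1 overlaps Xrcc6 on the opposite strand, and the strand setting of the counting is not given in the sources used here.

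Cell cycle genes moved with the list at S3: 16 S phase and 19 G2 and mitosis genes of 20 each were lower in the DIS3 line, with 0 higher, and 14 and 18 in the EXOSC10 line. The S phase genes summed to 4450 to 4520 CPM in DIS3 KO and 5590 to 5730 CPM in DIS3 WT samples, and to 4780 to 4860 CPM in EXOSC10 KO and 5740 to 5830 CPM in EXOSC10 WT samples. Their part was not tested. All 9 macrophage markers tested in DIS3 S3 and all 10 in EXOSC10 S3 were lower, at a summed level of 1.93 to 5.17 CPM over KO samples of both lines and 19.8 to 33.2 CPM over WT samples, with none at 0. Stellate and mesenchymal markers, of which few were tested, went the other way: 2 of 2 were higher in DIS3 S3 (471 to 520 CPM in KO and 69 to 85 CPM in WT samples in sum, with Pdgfrb at 0 in KO and Dcn and Lrat in WT) and 2 of 3 in EXOSC10 S3 (537 to 543 against 92.2 to 95.5 CPM, with Dcn and Des at 0 in KO and Des in WT). The part of these cell types was not tested.

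S4+S5 holds the most mature cells. In the DIS3 line 16 were lower and 1 higher, against 23.7% lower, 23.4% higher and 47.1% in either direction of 13120 genes, and in the EXOSC10 line 4 were lower and 0 higher, against 7.52% lower, 7.63% higher and 15.2% in either direction of 14146 genes. The EXOSC10 share was thus close to that of all genes. The medians were -0.51 and -0.22, against -0.01 and -0.02 over all genes. The DIS3 number called, 17, became 11 without KO 1-3. With all groups of a line in 1 fit, 23 were called in the DIS3 line and 19 in the EXOSC10 line. The EXOSC10 number of 4 became 16 without KO 1, 14 without KO 2-3, 1 without WT 1 and 0 without WT 2-3.

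Exo1 fell furthest in both lines. It had 8.76 and 6.55 CPM in DIS3 KO samples, against 16.7 and 18.2 CPM in WT samples (-1.15 ± 0.26, adjusted p = 0.00107), and 6.37 and 8.65 CPM in EXOSC10 KO samples, against 15.9 and 17 CPM in WT samples (-1.11 ± 0.23, adjusted p = 0.0287). Atm had 18.1 and 21.7 CPM in DIS3 KO samples, against 41.6 and 38.7 CPM in WT samples (-1.03 ± 0.19, adjusted p = 0.000182). KO and WT samples did not overlap. Rad54b had 3.2 and 6.55 CPM in DIS3 KO samples, against 10.2 and 9.52 CPM in WT samples (-1.1 ± 0.35, adjusted p = 0.0144), and lost its call with DESeq2's Wald test (0.0623) and without KO 1-3 (-0.6).

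Fancd2, the ubiquitinated clamp of the Fanconi pathway, had 37.4 and 32.5 CPM in EXOSC10 KO samples, against 48.1 and 53.9 CPM in WT samples (-0.55 ± 0.13, adjusted p = 0.0452). Parp1 had 32.7 and 35.5 CPM in EXOSC10 KO samples, against 46.1 and 55.7 CPM in WT samples (-0.57 ± 0.14, adjusted p = 0.0475). Without WT 1 or without WT 2-3 the EXOSC10 calls of Exo1, Fancd2 and Parp1 were all lost. The fourth gene called was Topbp1, the activator of Atr (-0.47). Blm, in contrast, was higher in DIS3 KO samples, with 61.9 and 62.7 CPM, against 50.3 and 37.9 CPM in WT samples (0.49 ± 0.17, adjusted p = 0.0236). That call was lost with DESeq2's Wald test (0.0594) and without KO 1-3 (0.5), KO 2 (0.47) or WT 2 (0.29).

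All 10 macrophage markers were lower in KO S4+S5 of both lines (18.6 to 35.7 CPM in DIS3 KO and 268 to 369 CPM in DIS3 WT samples, 33.5 to 53.1 CPM in EXOSC10 KO and 265 to 286 CPM in EXOSC10 WT samples), with Vcam1 at 0 in DIS3 KO. In DIS3 S4+S5, 6 of 8 granulocyte markers were lower too (55.6 to 68.1 against 248 to 345 CPM), with none at 0. B cell markers were lower in 5 of 6 tested for DIS3 (3.06 to 3.65 against 23.6 to 24 CPM) and 5 of 7 for EXOSC10 (1.43 to 2.99 against 26.1 to 28.3 CPM), with Rag2, Igll1 and Dntt at 0 in KO and Dntt in WT of both. Stellate and mesenchymal markers summed to 621 to 665 CPM in DIS3 KO and 204 to 218 CPM in DIS3 WT samples, with 2 higher and 1 lower of 4 tested and Des at 0 in KO and Lrat in WT, and to 865 to 892 CPM in EXOSC10 KO and 264 to 287 CPM in EXOSC10 WT samples, with 1 higher and 1 lower of 3 and Pdgfrb and Lrat at 0 in KO and Lrat in WT. In the S phase list 8 genes were lower and 1 higher in the DIS3 line and 1 lower and 0 higher in the EXOSC10 line, and of the 20 G2 and mitosis genes 13 and 12 were lower. Their part was not tested.

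**Figure D3:**
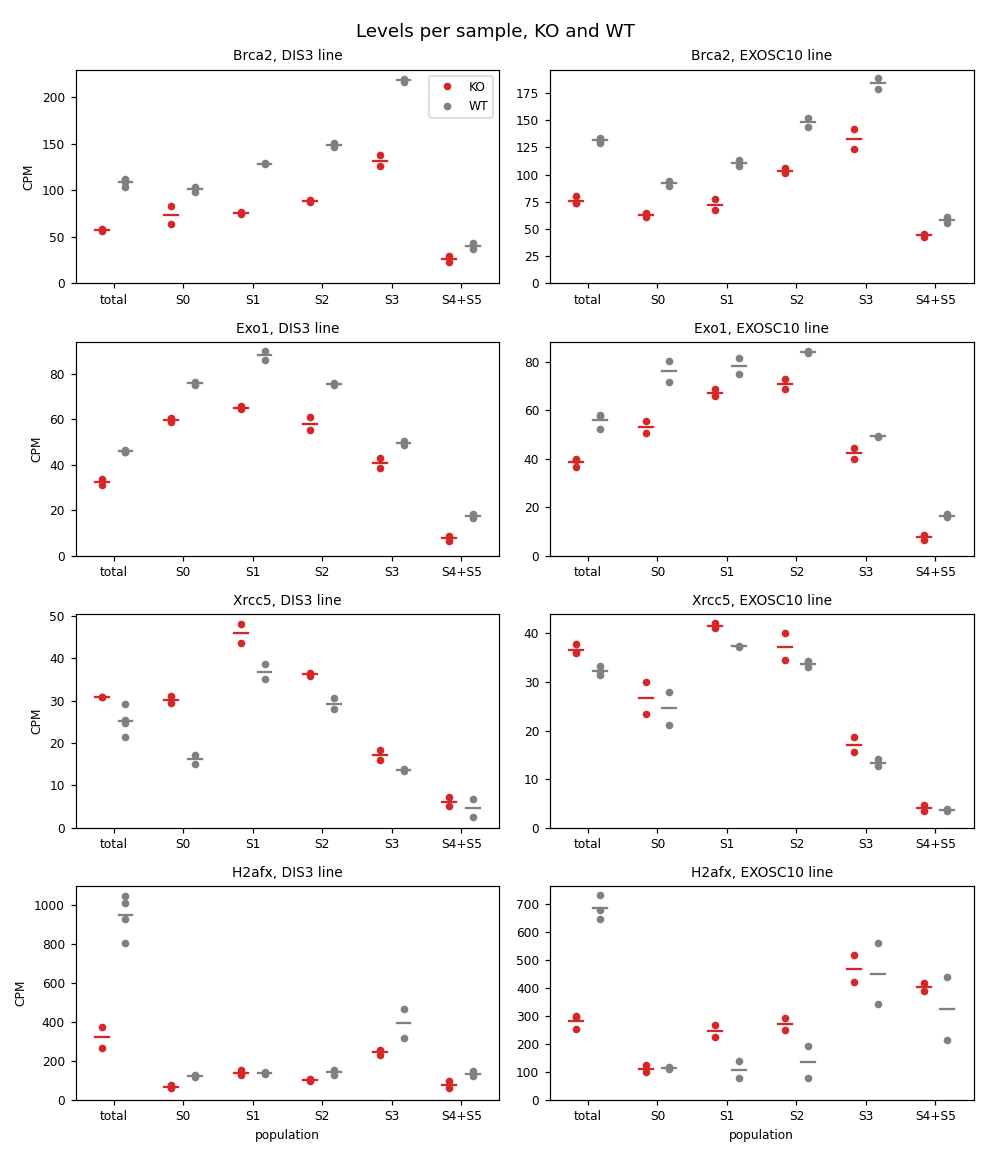
CPM (vertical axis, within each comparison) of Brca2, Exo1, Xrcc5 and H2afx in every KO sample (left of each pair) and WT sample (right) for total liver and the sorted populations of both lines; each point is 1 sample. Brca2 KO samples lie below WT samples throughout, Xrcc5 differs little or is higher in KO, and H2afx is lower in KO total liver of both lines but higher in EXOSC10 KO S1.

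Over the 12 comparisons of KO with WT, Brca2 was called lower in 11, with log2 fold changes from -0.92 to -0.4, the exception being EXOSC10 S4+S5. Brca1, Fancd2 and Exo1 were lower in 10, Fanca, Palb2 and Topbp1 in 9, and Fancg, Bard1, Atm, Rad50 and Clspn in 8. The log2 fold change was below 0 in all 12 comparisons for 16 genes: those 12 and Brip1, Fanci, Rad54l and Chek1. Rad54b was lower in 7 of the 10 sorted comparisons and in neither total liver.

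At the other end, Xrcc5 was never lower, was above 0 in all 12 comparisons (0.1 to 0.9) and was called higher in 4. Fancb was called in none of the 12. Besides Xrcc5, 5 genes were called higher at least once: H2afx, Blm, Msh6, Atr and Xrcc6. By role, recombination genes were lower in 74 and higher in 1 of 120 gene-by-comparison tests, Fanconi genes in 48 and 0 of 96, kinases and checkpoint genes in 42 and 3 of 84, single-strand break and mismatch genes in 13 and 1 of 36, and end-joining genes in 5 and 5 of 36. Over all genes tested, the mean of the 12 comparisons was 15.6% lower and 17.2% higher, against 61.7% and 0.833% for recombination, 50% and 0% for Fanconi, 50% and 3.57% for kinase and checkpoint, 36.1% and 2.78% for single-strand break and mismatch, and 13.9% and 13.9% for end-joining genes, so that end joining stood near the share of all genes. These tests are not independent, since the genes were measured in the same samples. Whether the fractions of a line came from the same livers is not known, so its comparisons may not be independent either.

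The KO effects of the lines were compared as an interaction term. Of the 31 genes, 1 differed in total liver, where 1.02% of 18158 genes did, 1 in S0 (7.25% of 17281 genes) and 1 in S1 (4.02% of 14718 genes). In total liver the effect on Fanca was lower in the DIS3 line than in the EXOSC10 line by 0.5 on the log2 scale (-0.5 ± 0.12, adjusted p = 0.0487), a call lost without the filter on low counts (-0.45) and without 9 of the 12 samples in turn. In S0 the effect on H2afx differed by -0.86 ± 0.18 (adjusted p = 0.0127), and in S1 by -1.2 ± 0.25 (adjusted p = 0.00867), DIS3 minus EXOSC10. The S0 call was lost without DIS3 WT 1-3 or EXOSC10 WT 2-3 (-0.8 in each case); the S1 call held in all 8.

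In S2, S3 and S4+S5 edgeR called 0 of the 31 genes, as did edgeR with DESeq2's size factors, against 2.22% of 14028, 1.41% of 13539 and 7.01% of 14905 genes. At an unadjusted p under 0.05 there were 6, 7 and 5. H2afx had an effect lower in the DIS3 line there too, by -1.48 ± 0.42, -0.74 ± 0.26 and -1.09 ± 0.4 (adjusted p = 0.107, 0.193 and 0.131).

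Within a line, the KO effect was compared between the 5 sorted populations, with the samples of all fractions taken as independent. It differed in the DIS3 line for 13 of the 31 genes, where it differed for 34.5% of 17548 genes, and in the EXOSC10 line for 6, where it differed for 30% of 17167. The 13 were Fancg, Rad54l, Rad54b, Blm, Exo1, Atm, Atr, Chek2, Msh6, Rad50, Parp1, H2afx and Topbp1, and the 6 were Fancc, Bard1, Exo1, Rad50, Parp1 and Topbp1. In the fit of each population, Msh6 had log2 fold changes of 0.37, -0.18, -0.22, -0.2 and -0.86 from S0 to S4+S5 of the DIS3 line (adjusted p = 6.83e-06). Atr had -0.09, -0.29, -0.16, 0.22 and -0.93 (adjusted p = 5.21e-05). Parp1 in the EXOSC10 line had -0.52, 0.08, 0.02, 0.09 and -0.57 (adjusted p = 0.000396), lower at both ends of the series. Brca1 and Brca2 were in neither list.

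Genes of the same pathways outside the list were counted for comparison. There were 143, of which 139 to 143 passed the filter on low counts. The share called lower was 44.1% in DIS3 total liver and 53.1% in EXOSC10 total liver, against 77.4% and 83.9% of the 31 genes. In S0, S1, S2, S3 and S4+S5 of the DIS3 line the shares were 14%, 19.7%, 4.23%, 33.6% and 13.7%, against 41.9%, 61.3%, 16.1%, 71% and 51.6% of the 31. In the EXOSC10 line they were 5.63%, 11.3%, 9.93%, 27.1% and 5.71%, against 29%, 48.4%, 35.5%, 58.1% and 12.9%. Among all genes tested, 24.2% were lower in DIS3 and 31% in EXOSC10 total liver. From S0 to S4+S5 the shares of all genes were 13%, 19.4%, 4.8%, 15.9% and 23.7% in the DIS3 line. They were 4.63%, 15.5%, 9.86%, 17.2% and 7.52% in the EXOSC10 line. Outside total liver and S3 the genes outside the list thus stood near or below the share of all genes. No difference between these shares was tested. The genes and the lists were chosen with earlier results of these data known, so the order of the shares is a description only.

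Fen1, the flap nuclease of long-patch base excision, fell furthest in DIS3 total liver, with means of 115 CPM in KO and 253 CPM in WT livers (-1.14 ± 0.13). In EXOSC10 total liver Fen1 averaged 93.7 CPM in KO and 219 CPM in WT livers (-1.22 ± 0.08), and Pcna, the sliding clamp, 189 CPM in KO and 428 CPM in WT livers (-1.18 ± 0.07). Neil3, a glycosylase of oxidised bases, was among the 2 that fell furthest in S3 of the DIS3 line (110 CPM in KO and 194 CPM in WT, -0.82 ± 0.09) and in S1 and S2 of the EXOSC10 line (-0.67 ± 0.12 and -0.53 ± 0.11). Timeless, which travels with the fork and aids Chek1, was lower in S1 of both lines, at 56.4 CPM in DIS3 KO and 99.6 CPM in DIS3 WT (-0.82 ± 0.06) and 56 CPM in EXOSC10 KO and 85 CPM in EXOSC10 WT (-0.6 ± 0.09).

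Other repair genes rose, and the largest rises of the wider lists were those of a few genes. Ercc5, a nuclease of nucleotide excision repair, was called higher in all 12 comparisons (0.4 to 2.82). It averaged 64.6 CPM in DIS3 KO and 13.3 CPM in DIS3 WT S0 (2.29 ± 0.13), and 43.4 CPM in EXOSC10 KO and 12.1 CPM in EXOSC10 WT S0 (1.84 ± 0.14). In S4+S5 Ercc5 averaged 55.7 CPM in DIS3 KO and 7.94 CPM in DIS3 WT samples (2.82 ± 0.2), and 29.3 CPM in EXOSC10 KO and 6.79 CPM in EXOSC10 WT samples (2.12 ± 0.22). Polk, a bypass polymerase, was also called higher in all 12 (0.28 to 2.2). Mgmt, which removes alkyl groups from guanine, was called higher in 11 (0.86 to 2.75 over the 12), the exception being EXOSC10 S4+S5 (2.18 ± 0.6, adjusted p = 0.0637). It averaged 20.1 CPM in DIS3 KO and 3.51 CPM in DIS3 WT S0 (2.53 ± 0.22), and 19.6 CPM in EXOSC10 KO and 2.86 CPM in EXOSC10 WT S0 (2.75 ± 0.22).

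Trp53, which encodes p53, was called higher in 4 of the 12 comparisons, S3 and S4+S5 of each line. It averaged 69.6 CPM in DIS3 KO and 40.1 CPM in DIS3 WT S3 (0.79 ± 0.08) and 60.9 CPM in EXOSC10 KO and 35.3 CPM in EXOSC10 WT S3 (0.79 ± 0.08). In S4+S5 it averaged 102 CPM in DIS3 KO and 25.8 CPM in DIS3 WT (1.99 ± 0.16) and 67.1 CPM in EXOSC10 KO and 21.2 CPM in EXOSC10 WT (1.67 ± 0.17).

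**Figure D4:**
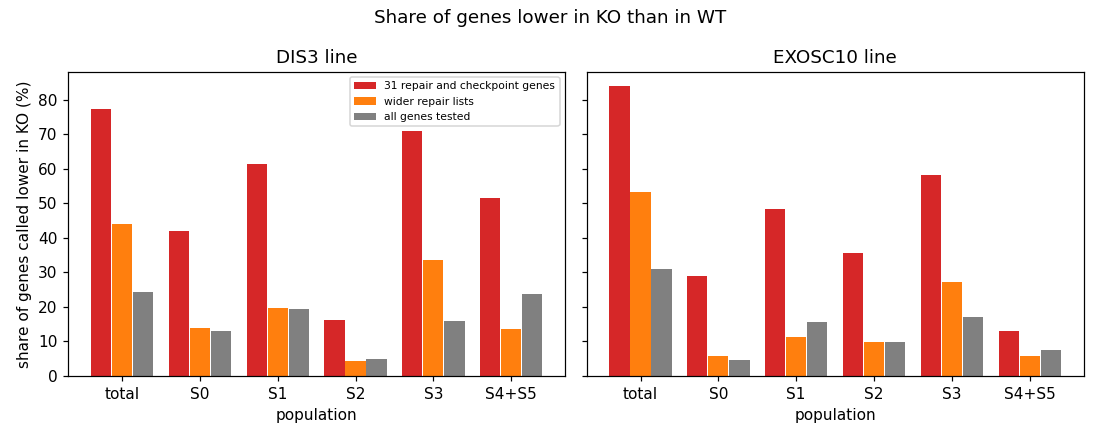
Percent of genes called lower in KO (vertical axis) among the 31 genes, the 143 other repair genes and all genes tested, for total liver and sorted populations of each line (horizontal axis). The 31 genes have the highest share in all 12 comparisons, from 12.9% in EXOSC10 S4+S5 to 83.9% in EXOSC10 total liver. The genes and the lists were chosen with earlier results of these data known.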

How the data were processed

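Total RNA, depleted of ribosomal RNA and sequenced in stranded libraries, was measured in total fetal liver and sorted populations of 2 mouse lines. The deposited values are raw counts per gene and library, made by the authors. The submitters' processing notes name HISAT2 2.1.0, Subread, featureCounts 1.6.4, R 3.5.1, DESeq2 1.20.0 and GRCm38; the annotation release and the strand setting are not given in the sources used here. Of the 49585 gene identifiers 49326 matched GENCODE M21, which gave exon lengths and positions.

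Pairs of libraries within a group were compared by chi-square per degree of freedom over genes with at least 20 counts in the pair. The 24 pairs under 1.5 (1.077 to 1.327, against 2.798 to 20.293 in the other pairs) were summed, which turned 76 libraries into 52 samples. Samples held 4.66 to 45.49 M (mega) counts (median 19.36), of which Gm26917 and Gm42418 took 5.4 to 61.4%. A name such as KO 1-3 is the sum of libraries 1 and 3.

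Each comparison was fitted with edgeR 4.0.16 (TMM, filterByExpr, quasi-likelihood test, R 4.3.3, limma 3.58.1) on the samples it compares, with Benjamini-Hochberg adjustment over all genes tested and a threshold of 0.05. The ± after a log2 fold change is its standard error, the absolute log2 fold change over the square root of F. Differences between lines and between populations were interaction terms. The fit was tested on simulated data with known changes. Alternatives were DESeq2's size factors, the DESeq2 1.42.0 Wald test, no filter, every library as its own sample, 1 fit per line, the replicate block, and leaving out each sample. Tables were made with Python 3.11.15 and pandas 2.3.3.

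The genes, the lists and the tests were chosen with earlier results of these data known. Genes were named in a KO comparison if they were among the 3 with the largest called change in each direction or were called against the direction of most, with Brca1, Brca2, Fanca, Atm, Atr, Chek1 and H2afx in S0 and total liver. In WT populations the rule took the 3 highest, the 3 lowest and the 3 most variable genes, between lines the 3 largest called differences, and of the wider lists the 2 largest called changes in each direction. Some genes of the wider lists that the rule takes are not reported here. Other genes given with values were chosen after their values were seen. Same-numbered KO and WT samples of a population did not deviate together (correlations of -0.11 to 0.1), so the numbers were not treated as pairs. Numbers were not compared across populations. The summed libraries were 1 and 3 in every sorted DIS3 group and 2 and 3 in every sorted EXOSC10 group. Whether 1 number stands for 1 liver in all fractions is not known, and the tests between populations took their samples as independent.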

Additional observations from a re-analysis of the deposited data

Results flagged for a closer look

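The DIS3 KO effect was lower than the EXOSC10 KO effect for Fanca in total liver, by a log2 difference of -0.5. For H2afx it was lower by -0.86 in S0 and by -1.2 in S1. These are tests of the difference between the lines, and sex and genotype cannot be told apart in the sorted DIS3 samples.

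The KO effect differed between the sorted populations for 13 of the 31 genes in the DIS3 line, where it differed for 34.5% of all genes tested, and for 6 in the EXOSC10 line, where it differed for 30%, by a test of the difference over all 5 populations. The EXOSC10 count is thus below the share of all genes. Of the 31 gene and group pairs with enough samples to look for a single library far from the rest, in DIS3 WT total liver, 0 had one.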

How the results depend on the processing

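With 2 samples in each sorted group, the counts of genes called moved with single samples. Leaving out 1 sample at a time, the number called ranged over 21 to 24 in DIS3 total liver, 9 to 19 in S0, 16 to 21 in S1, 0 to 17 in S2, 14 to 23 in S3 and 11 to 18 in S4+S5. In the EXOSC10 line it ranged over 26 to 28, 1 to 12, 9 to 13, 5 to 14, 15 to 17 and 0 to 16. Differences between the lines ranged over 0 to 1, 0 to 3, 1 to 1, 0 to 5, 0 to 1 and 0 to 3. With every library as its own sample, 16 genes were called in DIS3 S2, and 18, 19 and 13 in EXOSC10 S0, S2 and S4+S5. That setting called 20 genes for the population differences of each line, 14 for DIS3 WT S2 over S1, and 9, 2, 4, 4 and 4 for the line differences in S0, S1, S2, S3 and S4+S5. With all groups of a line in 1 fit, 12 were called in DIS3 S1 and 12 in DIS3 S2, and 16 and 19 in EXOSC10 S0 and S4+S5. Without the filter, 9 were called in EXOSC10 S4+S5, and the line differences were 0 in total liver, 2 in S0 and 1 each in S2, S3 and S4+S5. DESeq2's Wald test called 7 in EXOSC10 S2 and 12 in EXOSC10 S3. The replicate block called 9 in DIS3 S2, and the crossed pairing, added after the data were seen, 18 in EXOSC10 S0 and 20 in DIS3 S1. The sign turned for Atm in DIS3 S0 without KO 2 (0.01; its range was -0.08 to 0.01) and for H2afx in EXOSC10 S0 with every library as its own sample (0.04), without KO 1 (0.09) and without WT 1 (0.01; its range was -0.19 to 0.09), none of them called. The causes were not tested. Of the named genes' values, 270 kept direction and call when 1 sample was left out and 57 lost the call; under the other settings 468 kept both and 19 lost the call. The median of all genes moved by 0.11 without the filter and by 0.17 with 1 fit per line in DIS3 total liver, by 0.13 with 1 fit in EXOSC10 total liver, and by -0.18, -0.15 and -0.17 in EXOSC10 S4+S5 without the filter, with DESeq2 and with 1 fit. The largest shift, -0.32, was for EXOSC10 WT S4+S5 over S3 with every library as its own sample. That step also moved by -0.21 without the filter and by -0.11 with DESeq2's size factors. In DIS3 S4+S5 the median moved by -0.13 with 1 fit. For the line difference in S4+S5 it moved by 0.19 without the filter and by 0.16 without EXOSC10 KO 2-3. Depth limits the precision of genes with few counts; the 31 genes had 7 to 30154 counts in a sample.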

Other observations

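Nucleotide excision repair, which cuts out bulky lesions in any phase of the cell cycle, was counted as a list of 20 genes, all tested. In DIS3 total liver 3 were lower and 1 higher (median log2 fold change -0.08), against 24.2% lower and 26.5% higher of all genes, and in EXOSC10 total liver 8 were lower and 1 higher (-0.16), against 31% and 31.4%. In S1, 4 were higher and 2 lower in the DIS3 line (0.11), against 20.6% higher and 19.4% lower of all genes, and 5 higher and 1 lower in the EXOSC10 line (0.12), against 15.2% and 15.5%. In S3 of the EXOSC10 line 5 were higher and 2 lower (-0.02), against 16.8% and 17.2%. The highest log2 fold change of the list was 2.82, for Ercc5 in DIS3 S4+S5. The 7 genes of lesion bypass and direct reversal included 3 called higher and 1 lower in DIS3 S1 (0.58), and 3 higher and 0 lower in EXOSC10 S1 (0.2). In S4+S5 the median of the bypass and reversal genes was 0.66 in each line, with 3 of the 6 tested called higher for DIS3, 1 of the 7 for EXOSC10, and 0 lower in both, against 23.4% of all genes higher for DIS3 and 7.63% for EXOSC10. Whether these lists differ from the recombination genes was not tested.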
